A study of Mus musculus with 18 samples.

Results

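Peritoneal macrophages from Smim30-mutant mice were given either an adenovirus labelled as overexpressing Smim30 or a control adenovirus, and the groups were compared across the whole transcriptome. The comparison rests on 6 of the 18 libraries of the series, 3 with the Smim30 adenovirus (AdSmim30) and 3 with the control adenovirus (AdCtrl), chosen by their sample titles. Both groups came from SMIM30-Mut mice of the strain C57BL/6J, and both carried a virus. The virus went onto the cells 6 h after seeding and stayed for 24 h, after which all 6 wells were exposed to lipopolysaccharide (LPS), an endotoxin of Gram-negative bacteria that macrophages sense through a Toll-like receptor, and RNA was taken 6 h later (dose 5 ng/ml). The other 12 libraries are wild-type and mutant macrophages without virus and the mouse macrophage line IC-21 with control or Smim30 siRNA, 3 of each and all with the same LPS. The labels name neither the mutated bases nor the promoter or insert of the virus, and they speak of triplicates without saying whether these were separate mice. All p-values set the difference between the groups against the scatter of these 6 samples within their groups, and that scatter may therefore be only technical. Both groups share the infection and the time in culture that came with it.

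Smim30 encodes a small single-pass membrane protein, one of the microproteins that were first annotated as non-coding RNA. Peritoneal macrophages are resident phagocytes collected by washing the abdominal cavity, a space that is lined by mesothelial cells over a layer of fibroblasts. Fibrillar collagens and the small proteoglycans that bind them are typical products of fibroblasts and mesothelial cells. Cholesterol is made by a chain of enzymes whose genes are switched on together by the membrane-bound transcription factor SREBP-2 when sterol in the endoplasmic reticulum runs low, and the related SREBP-1 drives the genes of fatty acid synthesis.

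The gene named in the virus's label was examined first. The coding part of mouse Smim30, listed in the deposited files as 2610001J05Rik (ENSMUSG00000052419.7), is shown because the design turns on it. It lies in exon 3 of 3 at chr6:13870532-13870711 on the minus strand (GRCm38, GENCODE), and its start and stop codons are in capitals.
Smim30 coding sequence: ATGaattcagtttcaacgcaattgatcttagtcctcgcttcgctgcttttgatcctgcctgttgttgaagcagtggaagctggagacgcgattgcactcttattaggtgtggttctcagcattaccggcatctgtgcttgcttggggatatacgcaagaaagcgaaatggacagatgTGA
These 180 bases are 5.67% of the 3177 bases of the transcript, and the files hold 1 count per gene over all its exons. Smim30 stood at 45.7, 42.4 and 43.8 CPM (read pairs of the gene per 1000000 assigned pairs, scaled by TMM factors) in the 3 AdCtrl libraries and at 51.6, 52.7 and 55.4 in the 3 AdSmim30 libraries. Every AdSmim30 library was above every AdCtrl library. The rise was 1.21-fold (log2 fold change 0.28 ± 0.06 SE, 95% interval 0.15 to 0.40, adjusted p = 0.0052). It missed the threshold without AdCtrl replicate 2 (adjusted p = 0.059) and without AdSmim30 replicate 3 (adjusted p = 0.113). Uninfected wild-type and mutant cells had mean levels of 48.1 and 48.7 CPM of their library totals.

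The 6 libraries held 10172818 to 13456857 read pairs assigned to genes, and 3 pairs in a library, the limit that a count of 0 allows, correspond to 0.223 to 0.295 CPM (counting error only). AdCtrl replicate 3 stood apart from the other 5 libraries on the second principal component, where it was at 22.35. All 16 macrophage marker genes were above 3 counts in all 6 libraries, and their summed level was 21643 to 21847 CPM with AdCtrl and 21317 to 21565 CPM with AdSmim30. Genes that define T cells (Cd3d, Cd3g), natural killer cells (Ncr1) and neutrophils (S100a9) had no count in any of the 6. Other members of those lists were present: Il7r made up 99.9% of a summed T and NK cell list of 1219 to 1270 CPM, and 7 of 15 mast cell and granulocyte markers were above 3 counts in all 6 libraries, with Csf3r giving 75.8% of a sum of 109.0 to 122.3 CPM.

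Of 12701 genes tested, 181 (1.43%) differed between the viruses at an adjusted p under 0.05, with 74 higher (0.583%) and 107 lower (0.842%) after AdSmim30. Groups did not overlap for 70 of the 74 and for 106 of the 107, so separate groups are usual among called genes. The sizes of the changes were unequal in the 2 directions. All 30 called genes with a change of at least 2-fold were lower with AdSmim30 (0.236% of those tested). Another 14 genes had fitted levels at least 2-fold higher, and 0 of them were called by edgeR, although 13 had an unadjusted p under 0.05. DESeq2 and limma-voom called 0 genes that were at least 2-fold higher in their own fits. The strongest called rise was that of Nes, which encodes the intermediate filament protein nestin, at 1.46-fold, and 59 of the 74 rises were under 1.25-fold. The largest fitted fall among called genes was that of Wt1, a transcription factor of mesothelial cells, with 1.93 CPM in the AdCtrl group against 0.321 CPM in the AdSmim30 group. The 30 large falls were in genes of low level, none with an AdCtrl mean above 22.1 CPM, and 11 of them were members of the matrix, fibroblast or mesothelial lists. The filter kept genes with at least about 0.882 CPM in 3 libraries, and 17 of the 30 reached that level in all 3 AdCtrl libraries but not in all 3 AdSmim30 libraries, so that they were tested because AdCtrl was high. Called genes with a change of at least 2-fold were also counted in other fits, there in either direction. Their number was 58 without AdCtrl replicate 3, 16 without AdCtrl replicate 1 and 18 without AdSmim30 replicate 1 or AdSmim30 replicate 3. The count of 181 moved with the libraries used too. It was 453 without AdCtrl replicate 3 and 82 without AdCtrl replicate 1, 106 without AdSmim30 replicate 2 and 66 without AdSmim30 replicate 3, and 36 genes (17 higher, 19 lower) were called in the same direction under all 15 alternative settings.

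**Figure D1:**
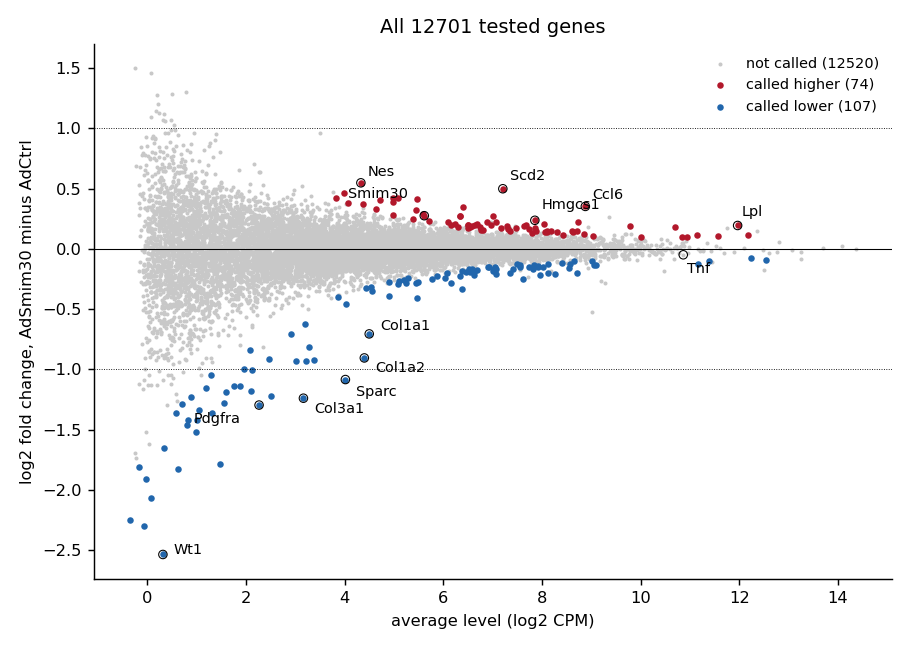
Each point is a tested gene, with its average log2 CPM across the 6 libraries on the horizontal axis and its log2 fold change (AdSmim30 minus AdCtrl) on the vertical axis; red and blue mark the 74 genes called higher and the 107 called lower, and dotted lines mark a 2-fold change. The called falls reach far below the dotted line at low levels, while the called rises stay under it.

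Collagen transcripts were lower after AdSmim30. All 12 collagen genes with enough reads to test had lower levels, 7 of them passed the test, and the median log2 fold change was -0.89, against 0.00 over all tested genes. Of the 12, 10 had groups that did not overlap, where 7.65% of all tested genes had non-overlapping groups with AdSmim30 lower. Summed over the 18 collagens in the list, the level was 110.9, 101.7 and 91.6 CPM in the AdCtrl libraries and 54.6, 53.7 and 59.4 CPM in the AdSmim30 libraries.

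The 2 chains of type I collagen, the main fibrillar collagen of connective tissue, had the highest counts. Col1a1 stood at 29.1, 29.5 and 25.7 CPM with AdCtrl and at 15.7, 16.6 and 19.2 with AdSmim30, a fall by 0.71 on the log2 scale (SE 0.09, adjusted p = 1.4e-07). Col1a2 stood at 30.7, 29.9 and 22.1 against 14.7, 14.3 and 15.3 CPM, and fell by 0.90 (SE 0.10, adjusted p = 6.2e-09). AdCtrl replicate 3 had the lowest AdCtrl level of both genes and was still above every AdSmim30 library. Type III collagen, which forms fibrils together with type I, fell further: Col3a1 stood at 13.97, 11.6 and 12.2 against 4.53, 5.24 and 6.12 CPM, a fall by 1.24 (SE 0.15, adjusted p = 1.2e-08). These 3 genes were called under all 15 alternatives. Col5a2, whose chain joins the type I fibril, went from a mean of 5.08 to 2.52 CPM. The chains Col6a1 and Col6a2 of beaded-filament collagen went from 4.52 to 2.09 CPM and from 3.93 to 1.64 CPM, and Col18a1 of basement membranes went from 3.39 to 1.30 CPM. These 4 calls were not stable to the removal of a library. Col5a2 lost its call without AdCtrl replicate 2 (adjusted p = 0.0563) or AdSmim30 replicate 3 (adjusted p = 0.0608), Col6a1 without AdSmim30 replicate 2 (adjusted p = 0.0725), Col6a2 without AdCtrl replicate 1 (adjusted p = 0.206) or AdSmim30 replicate 3 (adjusted p = 0.0572), and Col18a1 without AdCtrl replicate 1 (adjusted p = 0.0675). The 5 collagens that did not pass were Col4a1 (-0.77, adjusted p = 0.354), Col4a2 (-0.67, adjusted p = 0.48), Col5a1 (-0.80, adjusted p = 0.0506), Col6a3 (-0.87, adjusted p = 0.234) and Col15a1 (-0.18, adjusted p = 0.868). The remaining 6 of the 18, among them Col8a1 and Col14a1, had too few reads to test.

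Among other matrix proteins, 7 of 21 tested genes fell, 0 rose, and the median log2 fold change was -0.71. Sparc, a collagen-binding glycoprotein, stood at 23.3, 23.2 and 19.7 CPM with AdCtrl and at 10.2, 9.57 and 11.5 with AdSmim30, 0.472 times the AdCtrl level (log2 -1.08 ± 0.11 SE, adjusted p = 6.9e-11). The small leucine-rich proteoglycans Bgn (biglycan) and Dcn (decorin) went from 13.6 to 7.15 CPM and from 5.87 to 2.60 CPM, with adjusted p = 9.2e-06 and adjusted p = 0.00015. Aebp1, a collagen-binding protein of the fibroblast matrix, went from 7.98 to 3.39 CPM (adjusted p = 4.6e-06), and Igfbp4, which binds insulin-like growth factors, from 12.3 to 7.04 CPM (adjusted p = 6.7e-05). The basement membrane genes Hspg2 (perlecan) and Lamb1 (a laminin chain) also fell, by 0.71 and 2.07 on the log2 scale. Hspg2 lost its call without AdCtrl replicate 1 (adjusted p = 0.0541) or AdSmim30 replicate 3 (adjusted p = 0.0559), and Lamb1 without AdSmim30 replicate 1 (adjusted p = 0.105) or AdSmim30 replicate 3 (adjusted p = 0.113). The 14 that did not pass included the matrix genes with the highest counts. Fn1 (fibronectin) stood at 160.1, 163.2 and 164.5 against 166.9, 157.5 and 169.7 CPM (log2 0.02, 95% interval -0.06 to 0.09), with overlapping groups, and Lamc1 and Thbs1 differed by -0.08 (adjusted p = 0.677) and -0.14 (adjusted p = 0.428).

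Of 15 tested collagen-modifying enzymes, 2 fell: Serpinh1, the chaperone of procollagen, from 7.07 to 3.78 CPM, and Bmp1, which cuts the procollagen end, from 3.98 to 1.77 CPM. Serpinh1 lost its call without AdCtrl replicate 1 (adjusted p = 0.0682) or AdSmim30 replicate 3 (adjusted p = 0.0719), and Bmp1 without AdCtrl replicate 1 (adjusted p = 0.383), AdSmim30 replicate 1 (adjusted p = 0.054) or AdSmim30 replicate 2 (adjusted p = 0.0946). The more abundant hydroxylases and transferases did not pass, with Colgalt1 at 479 and 477 CPM, Plod3 at 119.3 and 125.7 CPM and Plod1 at 96.9 and 91.7 CPM. The median of this list was -0.08.

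**Figure D2:**
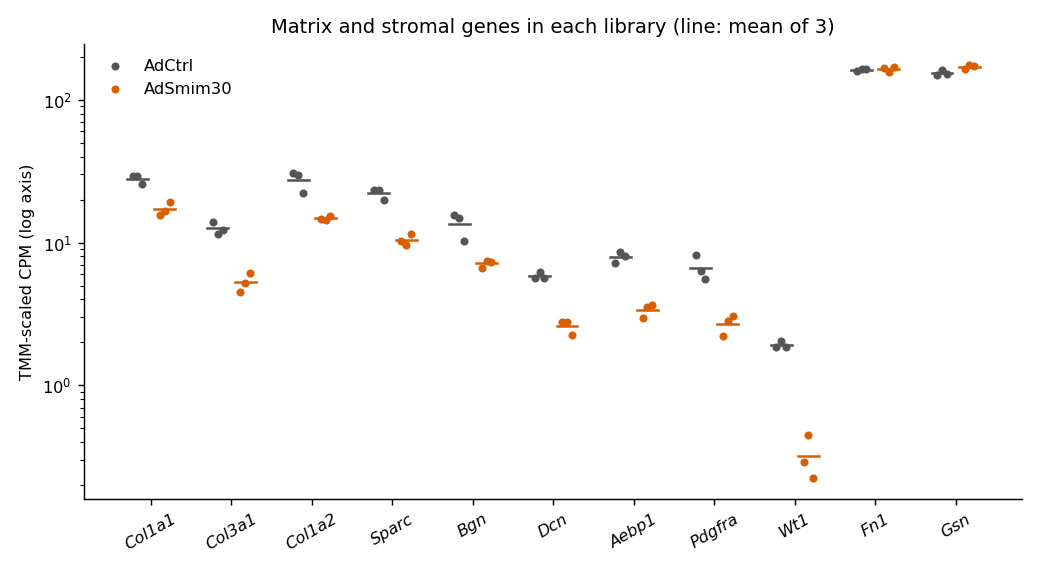
TMM-scaled CPM on a log axis for 11 matrix and stromal genes, with 1 point per library (grey, 3 AdCtrl; orange, 3 AdSmim30) and a line at each mean. The groups are separate for Col1a1 through Wt1, whereas Fn1 at about 160 CPM overlaps and Gsn is slightly higher with AdSmim30.

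Markers of fibroblasts and mesothelial cells were sparse in all 6 libraries. Of 20 fibroblast markers, 8 were above 3 counts in every library and 7, among them Dpt, Pi16 and Clec3b, were at or under 3 counts in all 6. Pdgfra, the platelet-derived growth factor receptor of fibroblasts, stood at 8.12, 6.32 and 5.60 CPM with AdCtrl and at 2.22, 2.84 and 3.06 with AdSmim30, 0.407 times the AdCtrl level (log2 -1.30 ± 0.20 SE, adjusted p = 1.5e-05). Gsn (gelsolin), an actin-severing protein that macrophages also express, rose from 154.0 to 170.7 CPM (log2 0.15, adjusted p = 0.0204), and that call was lost without AdCtrl replicate 1 (adjusted p = 0.215), AdSmim30 replicate 2 (adjusted p = 0.252) or AdSmim30 replicate 3 (adjusted p = 0.148). Pdgfrb, Serpinf1, Lpar1 and Fstl1 did not pass. The summed fibroblast list stood at 233.9 to 246.1 CPM with AdCtrl and 241.1 to 254.0 CPM with AdSmim30, with 66.9% of its counts from Gsn. The mesothelial list had 17 genes, none above 3 counts in every library, and 9 of them, including Msln, Krt8, Krt18 and Krt19, were at or under 3 counts in all 6. Wt1 was the 1 member with enough reads to test, at 1.87, 2.04 and 1.86 CPM against 0.289, 0.449 and 0.224 CPM (adjusted p = 0.00015). These levels rest on 23, 21 and 19 read pairs with AdCtrl and 3, 6 and 3 with AdSmim30, so Wt1 was tested only because it was high with AdCtrl, and the size of its fall is not well determined. The summed mesothelial list fell from 4.64 to 5.13 CPM with AdCtrl to 1.34 to 1.73 CPM with AdSmim30, with no overlap.

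In bulk RNA, fewer cells of a type and less RNA per cell cannot be told apart. Pdgfra and the summed mesothelial list were lower together with the matrix genes, while the summed fibroblast list overlapped between the groups. Single genes weighed heavily in both sums, with 34.6% of the mesothelial counts from Wt1 and 66.9% of the fibroblast counts from Gsn. The part of these cell types in the result was not tested. Markers of smooth muscle (0 of 4 tested) and of endothelium (0 of 3 tested) gave no call in either direction, and Pecam1, Tek and Cldn5 of endothelium were at or under 3 counts in all 6. With 1.43% of all tested genes called, 0 calls among so few genes says little. Counting each gene once, the matrix, fibroblast and mesothelial lists held 108 genes, 55 of them tested, with 18 lower, 1 higher and a median log2 fold change of -0.67. Of the 55, 8 reached the filter's level in all AdCtrl but not in all AdSmim30 libraries, and 0 the other way round. The same genes were looked up in the IC-21 macrophage line with control siRNA, whose libraries played no part in the comparison. Of the 55, 35 were at or under 3 counts in all 3 of these IC-21 libraries, and that subset held 17 of the 18 falls and had a median of -0.93. The other 20 held 1 fall (Igfbp4) and 1 rise (Gsn) with a median of -0.08. Over all 12701 tested genes, 741 (5.8%) were at or under 3 counts in IC-21, with 39 called lower and 5 higher, the latter including Scd2, Nes, Cd72 and Sorl1. Of the 30 falls of at least 2-fold, 26 were in that group and Ccdc80, Syde1, Spsb1 and Nfib were not. The 741 also held the MHC class I genes H2-Q6, H2-T24 and H2-Q7, with AdCtrl means of 82.9, 60.3 and 59.5 CPM. Few counts in IC-21 therefore do not by themselves assign a gene to another cell type, and the source of these transcripts was not tested. This split was chosen, and the genes outside the lists were named, after the values were seen.

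The level of these transcripts also differed among the primary cell groups. Summed collagen RNA stood at 218.9 to 245.6 CPM in wild-type and 208.5 to 237.9 CPM in mutant macrophages without virus, above both virus groups, and at 17.7 to 23.5 CPM in the 6 IC-21 libraries. Pdgfra had means of 36.4 and 36.3 CPM in uninfected wild-type and mutant cells, 6.68 CPM with AdCtrl, 2.70 CPM with AdSmim30 and 0 counts in IC-21. For the cells without virus the labels give no interval between seeding and LPS, so virus and time in culture cannot be told apart in these values.

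**Figure D3:**
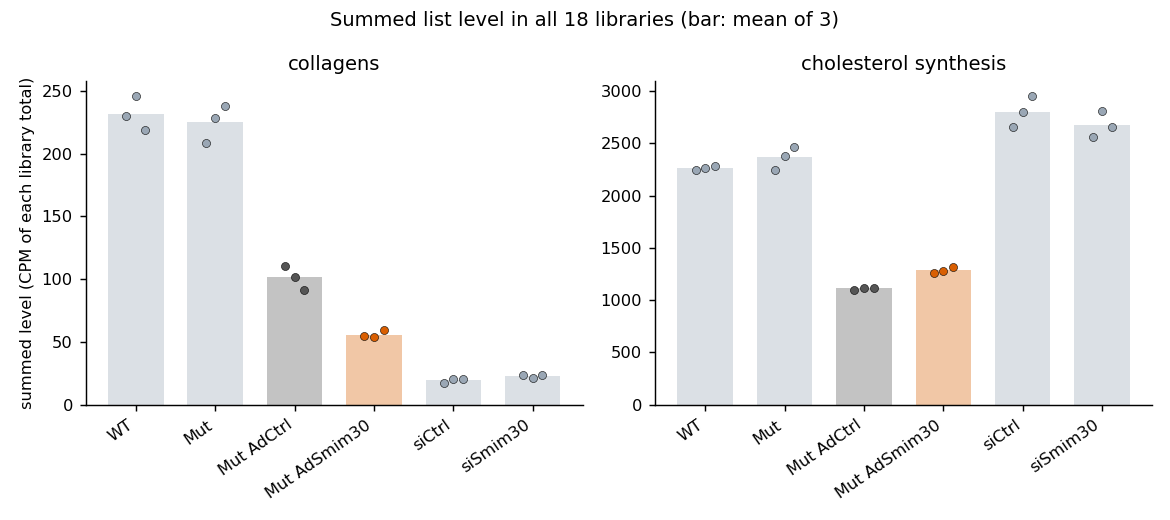
Summed CPM (of each library's total) of the 18 collagen genes (left) and the 20 cholesterol synthesis genes (right) in all 18 libraries, with points for libraries and bars for the mean of 3. AdSmim30 libraries lie below AdCtrl libraries for collagens and above them for cholesterol synthesis, and both virus groups lie below the uninfected primary cells.

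Cholesterol synthesis genes were higher after AdSmim30. All 20 genes of the list had higher levels, 8 passed the test and 0 were lower, with a median log2 fold change of 0.22, and 15 of the 20 had groups that did not overlap (7.47% of all tested genes were non-overlapping with AdSmim30 higher). The summed level of the list was 1101 to 1119 CPM with AdCtrl and 1255 to 1319 CPM with AdSmim30, against 2247 to 2466 CPM in uninfected primary macrophages.

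The called genes lay at several steps of the chain. Hmgcs1, which makes HMG-CoA, stood at 211.0, 210.0 and 216.3 CPM with AdCtrl and at 239.3, 250.6 and 260.5 with AdSmim30 (1.18-fold, log2 0.24 ± 0.03 SE, adjusted p = 3.7e-06). Fdft1, the squalene synthase at the first step committed to sterols, went from 28.1 to 34.3 CPM (adjusted p = 0.046), and Sqle, the epoxidase that follows it, from 73.4 to 88.5 CPM (1.21-fold, adjusted p = 0.00023). Demethylation of lanosterol and the steps after it were represented by Cyp51 (108.5 to 126.0 CPM, adjusted p = 0.00175), Msmo1 (123.1 to 143.5 CPM, adjusted p = 0.00019) and Hsd17b7 (17.8 to 22.9 CPM, adjusted p = 0.0184). Every AdSmim30 library was above every AdCtrl library for each of these genes, as for 70 of all 74 called rises. Hmgcs1, Sqle and Msmo1 were called under all 15 alternatives. Others were lost on leaving out libraries, and 4 genes of the list passed without AdSmim30 replicate 3, where Fdft1 had adjusted p = 0.492, Cyp51 adjusted p = 0.104 and Hsd17b7 adjusted p = 0.104, whereas 10 passed without AdCtrl replicate 3. Without AdCtrl replicate 1, 5 passed, and Cyp51 had adjusted p = 0.0799 and Hsd17b7 adjusted p = 0.194. Fdft1 was lost without AdCtrl replicate 2 (adjusted p = 0.254) or AdSmim30 replicate 1 (adjusted p = 0.108), and Hsd17b7 without AdSmim30 replicate 2 (adjusted p = 0.149). Of the 12 that did not pass, Lss (1.16-fold, adjusted p = 0.0578), Dhcr7 (1.19-fold, adjusted p = 0.0843), Sc5d (1.11-fold, adjusted p = 0.0886) and Mvd (1.21-fold, adjusted p = 0.0896) had groups that did not overlap, and Mvk (adjusted p = 0.934) and Fdps (adjusted p = 0.927) had groups that did.

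Promoters of these genes are shown because the members moved together and because sterol promoters are known to combine sites for SREBP with CCAAT boxes, which bind the factor NF-Y. The windows run from 250 bases before to 50 after each RefSeq start on GRCm38.p6, and 18 promoters from 15 of the 20 genes were matched by symbol. Windows were searched on both strands for CCAAT and for TCACNCCAC, a common form of the sterol regulatory element, where N is any base. CCAAT was found in 14 of the 18 (77.8%), against 37.4% of all 32851 promoters of this length, and TCACNCCAC in 1 of 18, Hmgcs1, against 1.24%. The share was 58.8% for promoters of SREBP regulation and sterol uptake genes, 56.5% for fatty acid and triglyceride synthesis and 37.5% for collagens, so a share above that of all promoters was not particular to cholesterol synthesis. The 4 windows of called cholesterol genes follow 5′ to 3′ on the gene's strand, with matches to either motif (or its reverse complement, ATTGG for CCAAT) in capitals. Hmgcs1 is at chr13:119690101-119690400 (plus strand), Cyp51 at chr5:4104648-4104947 (minus), Msmo1 at chr8:64733529-64733828 (minus) and Hsd17b7 at chr1:169969156-169969455 (minus).
Hmgcs1: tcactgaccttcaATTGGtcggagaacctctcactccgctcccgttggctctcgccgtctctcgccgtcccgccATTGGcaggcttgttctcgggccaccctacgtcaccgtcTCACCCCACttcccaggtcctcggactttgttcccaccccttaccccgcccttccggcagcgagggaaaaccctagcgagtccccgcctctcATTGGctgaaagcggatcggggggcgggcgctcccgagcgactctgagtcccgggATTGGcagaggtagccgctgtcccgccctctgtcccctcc
Cyp51: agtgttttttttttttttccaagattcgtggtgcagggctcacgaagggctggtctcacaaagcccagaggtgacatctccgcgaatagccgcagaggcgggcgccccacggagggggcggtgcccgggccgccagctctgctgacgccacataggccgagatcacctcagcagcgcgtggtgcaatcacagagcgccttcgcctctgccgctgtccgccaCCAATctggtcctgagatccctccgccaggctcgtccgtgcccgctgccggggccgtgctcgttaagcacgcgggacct
Msmo1: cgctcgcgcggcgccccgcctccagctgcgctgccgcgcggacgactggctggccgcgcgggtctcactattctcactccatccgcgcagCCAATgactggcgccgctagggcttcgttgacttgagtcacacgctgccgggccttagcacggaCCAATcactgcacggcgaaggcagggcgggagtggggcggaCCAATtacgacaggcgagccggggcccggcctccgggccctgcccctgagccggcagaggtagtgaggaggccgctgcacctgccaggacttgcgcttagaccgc
Hsd17b7: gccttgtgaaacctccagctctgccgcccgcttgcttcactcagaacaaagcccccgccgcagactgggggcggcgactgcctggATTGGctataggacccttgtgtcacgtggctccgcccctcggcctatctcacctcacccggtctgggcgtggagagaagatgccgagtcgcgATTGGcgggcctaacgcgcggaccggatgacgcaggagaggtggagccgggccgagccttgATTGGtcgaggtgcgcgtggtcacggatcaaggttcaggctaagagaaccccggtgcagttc
The Hmgcs1 window holds 4 CCAAT matches and the 1 TCACNCCAC match, Msmo1 and Hsd17b7 hold 3 CCAAT matches each, and Cyp51 holds 1. Mvk, which did not pass the test, holds 5, so the number of matches does not order the genes by their change. A match is a run of letters and does not show that a factor was bound.

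Regulators of the pathway moved little. Of 14 tested genes for SREBP control and sterol uptake, 1 rose and 0 fell, with a median of 0.03. The gene that rose was Insig1, an SREBP target whose protein holds SREBP in the endoplasmic reticulum, from 203.2, 212.2 and 189.0 CPM to 226.0, 228.2 and 222.1 CPM (1.12-fold, adjusted p = 0.0052); without AdSmim30 replicate 2 its adjusted p was 0.0753. Srebf2, which encodes SREBP-2, differed by 0.08 (adjusted p = 0.229) and Srebf1 by 0.01 (adjusted p = 0.973).

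Genes of fatty acid and triglyceride synthesis rose in part, with 4 of 19 tested higher, 0 lower and a median of 0.14. Scd2, a desaturase that makes monounsaturated fatty acids, stood at 109.2, 132.5 and 125.3 CPM with AdCtrl and at 174.6, 172.6 and 169.9 with AdSmim30 (1.41-fold, log2 0.50 ± 0.05 SE, adjusted p = 9.1e-08). AdCtrl replicate 1 was the lowest library, and every AdSmim30 library was above all 3 AdCtrl libraries. Fasn, the fatty acid synthase, went from 74.7 to 94.5 CPM (1.27-fold, adjusted p = 0.0112), Acly, which supplies acetyl-CoA, from 210.6 to 231.1 CPM (adjusted p = 0.0206) and the desaturase Fads1 from 85.1 to 95.7 CPM (adjusted p = 0.0423). Scd2 was called under all 15 alternatives. It was the 1 gene of the list still called without AdSmim30 replicate 3, where Fasn had adjusted p = 0.0754, Acly adjusted p = 0.171 and Fads1 adjusted p = 0.211, and 2 genes were called without AdCtrl replicate 1, AdSmim30 replicate 1 or AdSmim30 replicate 2. Over these last 3 fits Fads1 had adjusted p of 0.341, 0.151 and 0.125, Acly was lost without AdCtrl replicate 1 (adjusted p = 0.103) and AdSmim30 replicate 2 (adjusted p = 0.185), and Fasn without AdSmim30 replicate 1 (adjusted p = 0.125). Each gene counted once, the 3 lipid synthesis lists gave 13 higher and 0 lower of 53 tested.

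**Figure D4:**
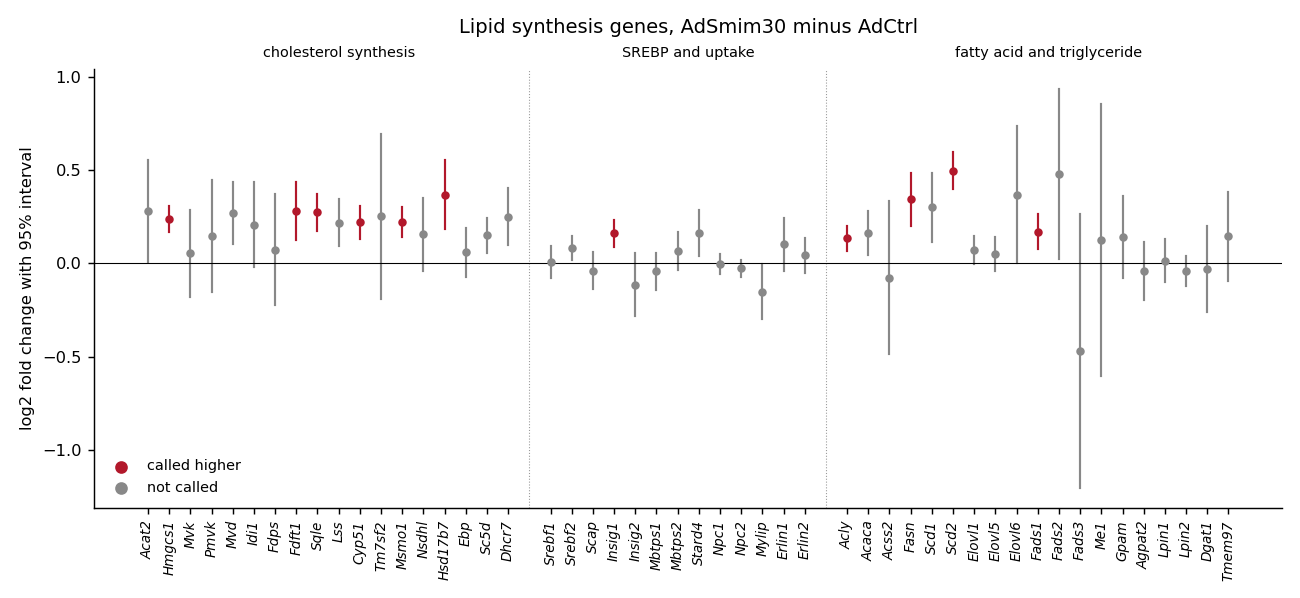
Log2 fold change (AdSmim30 minus AdCtrl) with its 95% interval for tested genes of cholesterol synthesis in pathway order, of SREBP control and sterol uptake, and of fatty acid and triglyceride synthesis; red marks genes called higher and grey genes not called. The cholesterol synthesis genes drawn lie above 0, and Scd2 at 0.50 lies highest among the called genes.

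Genes that take up, store and export lipid went in both directions. Lpl, the lipoprotein lipase, stood at 3637, 3782 and 3793 CPM with AdCtrl and at 4195, 4261 and 4371 with AdSmim30 (1.14-fold, adjusted p = 1.2e-10). The scavenger receptors Cd36 (2939 to 3164 CPM, adjusted p = 0.00052) and Msr1 (374.8 to 413.5 CPM, adjusted p = 0.00207) rose by less than 1.25-fold. Apoe, the apolipoprotein that carries exported cholesterol, fell from 6220, 6289 and 6021 CPM to 5798, 5871 and 5734 CPM (log2 -0.09, adjusted p = 0.00166), and the fatty acid carrier Fabp4 fell from 254.8 to 231.3 CPM (adjusted p = 0.0228). Without AdSmim30 replicate 3 the adjusted p was 0.0766 for Apoe, 0.157 for Fabp4 and 0.063 for Msr1. Fabp4 also lost its call without AdCtrl replicate 1 (adjusted p = 0.338), AdCtrl replicate 2 (adjusted p = 0.118) or AdSmim30 replicate 1 (adjusted p = 0.229). With all 18 libraries in 1 fit, Cd36 (adjusted p = 0.34), Msr1 (adjusted p = 0.261), Apoe and Fabp4 lost their calls. Apoe and Fabp4 were also lost by DESeq2. Among 13 tested LXR targets, Lpl was the 1 gene higher and Apoe the 1 lower, and the list median was -0.04.

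Of 16 macrophage markers, 4 rose and 0 fell, with a median of 0.02. In sign, 10 were higher and 6 lower, and at an unadjusted p under 0.05 edgeR had 6 higher and 3 lower. Without AdCtrl replicate 3, 4 were called higher and 1 lower. The summed level of the list was 0.987 times the AdCtrl level, with no overlap, so the list did not rise as a whole. The F4/80 gene Adgre1 stood at 362.5, 380.2 and 370.8 CPM with AdCtrl and at 404.7, 419.1 and 408.3 with AdSmim30 (1.11-fold, adjusted p = 0.00153). Itgam, which encodes CD11b, stood at 116.5, 112.3 and 118.8 against 145.3, 135.3 and 140.0 CPM (1.21-fold, adjusted p = 4.6e-06). The complement genes C1qa and C1qb rose 1.12-fold and 1.10-fold. Itgam kept its call in all 6 leave-one-out fits, whereas without AdSmim30 replicate 2 it was the 1 marker called, with Adgre1 at adjusted p = 0.0504, C1qa at adjusted p = 0.375 and C1qb at adjusted p = 0.185. Without AdCtrl replicate 1, C1qa had adjusted p = 0.194 and C1qb adjusted p = 0.13, and without AdSmim30 replicate 3 they had adjusted p = 0.313 and adjusted p = 0.228, so that 2 markers were called in each case. C1qa was also lost without AdCtrl replicate 2 (adjusted p = 0.0876). The 13 tested markers of large peritoneal macrophages gave 0 calls, where 1.43% of all tested genes were called. Folr2, the folate receptor of resident macrophages, rose 1.31-fold (adjusted p = 0.00144) among 8 tested markers of small peritoneal macrophages and monocytes. Folr2 lost its call without AdCtrl replicate 1 (adjusted p = 0.0743) or AdSmim30 replicate 3 (adjusted p = 0.0669).

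Of 14 tested integrins, 3 rose and 0 fell. Itgax, which encodes CD11c, stood at 781.9, 834.0 and 852.1 CPM against 928.0, 928.1 and 960.0 CPM (1.14-fold, adjusted p = 1.8e-06), Itgam is given above, and Itga4 rose 1.15-fold (adjusted p = 0.00878), with adjusted p = 0.194 without AdCtrl replicate 1, adjusted p = 0.0547 without AdSmim30 replicate 2 and adjusted p = 0.147 without AdSmim30 replicate 3. The matrix protease genes Mmp12, the macrophage elastase, and Plau, the urokinase, rose 1.08-fold and 1.11-fold (adjusted p = 4.9e-05 and adjusted p = 0.00328). Timp3, an inhibitor of such proteases that is bound to matrix, fell from 2.78 to 0.932 CPM (log2 -1.52, adjusted p = 0.00338). Plau lost its call without AdSmim30 replicate 2 (adjusted p = 0.0707) or AdSmim30 replicate 3 (adjusted p = 0.101), and Timp3 without AdSmim30 replicate 1 (adjusted p = 0.0606). With all 18 libraries in 1 fit, Mmp12 (adjusted p = 0.337) and Plau lost their calls, and Plau was also lost by DESeq2.

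The smallest p-value of the comparison was that of Ccl6, a CC chemokine made by macrophages. Ccl6 stood at 398.7, 426.7 and 415.5 CPM with AdCtrl and at 517.4, 545.6 and 520.4 with AdSmim30 (1.28-fold, log2 0.35 ± 0.03 SE, adjusted p = 4.8e-14). Its relative Ccl9 stood at 404.3, 393.2 and 378.1 against 454.8, 457.1 and 461.8 CPM (1.17-fold, adjusted p = 1.6e-07). Spp1, which encodes the secreted phosphoprotein osteopontin, rose from 1551, 1611 and 1524 CPM to 1754, 1771 and 1788 CPM (1.13-fold, adjusted p = 8.8e-08). Ccl6 and Spp1 were called under all 15 alternatives, and Ccl9 in all 6 leave-one-out fits. Ccl9 lost its call with all 18 libraries in 1 fit (adjusted p = 0.553). The other 2 called chemokines fell: Cxcl10, an interferon-induced attractant of T cells, from 21.9, 18.8 and 15.5 CPM to 12.6, 14.9 and 13.4 CPM (log2 -0.46, adjusted p = 0.0122), and Ccl5 from 99.0 to 86.7 CPM (log2 -0.19, adjusted p = 0.0222). Both lost the call without AdCtrl replicate 1 (adjusted p = 0.341 for Cxcl10 and adjusted p = 0.166 for Ccl5), AdCtrl replicate 2 (adjusted p = 0.0632 and adjusted p = 0.259), AdSmim30 replicate 1 (adjusted p = 0.108 and adjusted p = 0.1) or AdSmim30 replicate 3 (adjusted p = 0.131 and adjusted p = 0.287). Of 15 tested chemokines, 11 did not pass.

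The LPS-induced cytokines gave 0 calls among 18 tested genes, with 16 of them at lower levels after AdSmim30 and a median of -0.14. Over all tested genes, 1.43% were called and 6338 of 12701 were at lower levels. Single libraries moved the cytokine median, from -0.08 without AdCtrl replicate 2 to -0.20 without AdCtrl replicate 3. At an unadjusted p under 0.05, edgeR had 3 of the 18 lower and 0 higher, and DESeq2 and limma-voom called 0. Tnf stood at 1971, 1942 and 1779 CPM with AdCtrl and at 1798, 1857 and 1848 with AdSmim30 (log2 -0.05, adjusted p = 0.628). Il1b stood at 410.9, 381.6 and 350.0 against 337.7, 366.1 and 350.4 CPM (log2 -0.12, adjusted p = 0.562). AdCtrl replicate 3 was the lowest AdCtrl library for both genes, and it lay within or below the AdSmim30 range. Without that library 6 cytokines were called lower and 0 higher, with Tnf at -0.09 (adjusted p = 0.0026) and Il1b at -0.17 (adjusted p = 1.3e-05), and without AdSmim30 replicate 2, 1 was called lower. Il6 was near the limit of detection, at 1.36 to 1.71 CPM against 0.673 to 2.12 CPM (adjusted p = 0.902). The chemokine genes Cxcl1 (log2 -0.10, adjusted p = 0.0791), Cxcl2 (-0.06, adjusted p = 0.853) and Ccl2 (0.05, adjusted p = 0.839) and the enzymes Ptgs2 (-0.08, adjusted p = 0.48) and Nos2 (0.09, adjusted p = 0.966) did not pass. Without AdCtrl replicate 3, 7 chemokines were called lower and 2 higher.

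NF-kB components and feedback genes had 1 call of 25 tested, with 22 at lower levels (6338 of 12701 over all tested genes) and a median of -0.06. That call was Dusp1, a phosphatase that switches off MAP kinases, at 228.5, 217.8 and 196.8 CPM against 171.2, 187.4 and 182.4 CPM (log2 -0.25 ± 0.04 SE, adjusted p = 0.0018), and it was made under all 15 alternatives. Immediate early genes, the transcription factors induced first after a stimulus, had 1 call of 19 tested, with 17 at lower levels. Genes of a list are not independent samples, so these counts of signs are only descriptive. Egr1 stood at 84.6, 77.9 and 73.5 against 61.3, 66.9 and 65.9 CPM (log2 -0.28 ± 0.05 SE, adjusted p = 0.00065) and was called in all 6 leave-one-out fits. Egr1 lost its call with all 18 libraries in 1 fit (adjusted p = 0.0735). Without AdCtrl replicate 3, 9 NF-kB and feedback genes and 4 immediate early genes were called lower. None of 32 type I interferon response genes and none of 19 nucleic acid sensor genes passed, and their medians were -0.03 and -0.01. Only 1.43% of all tested genes were called, so 0 calls in lists of this size does not show that these genes were unaffected.

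**Figure D5:**
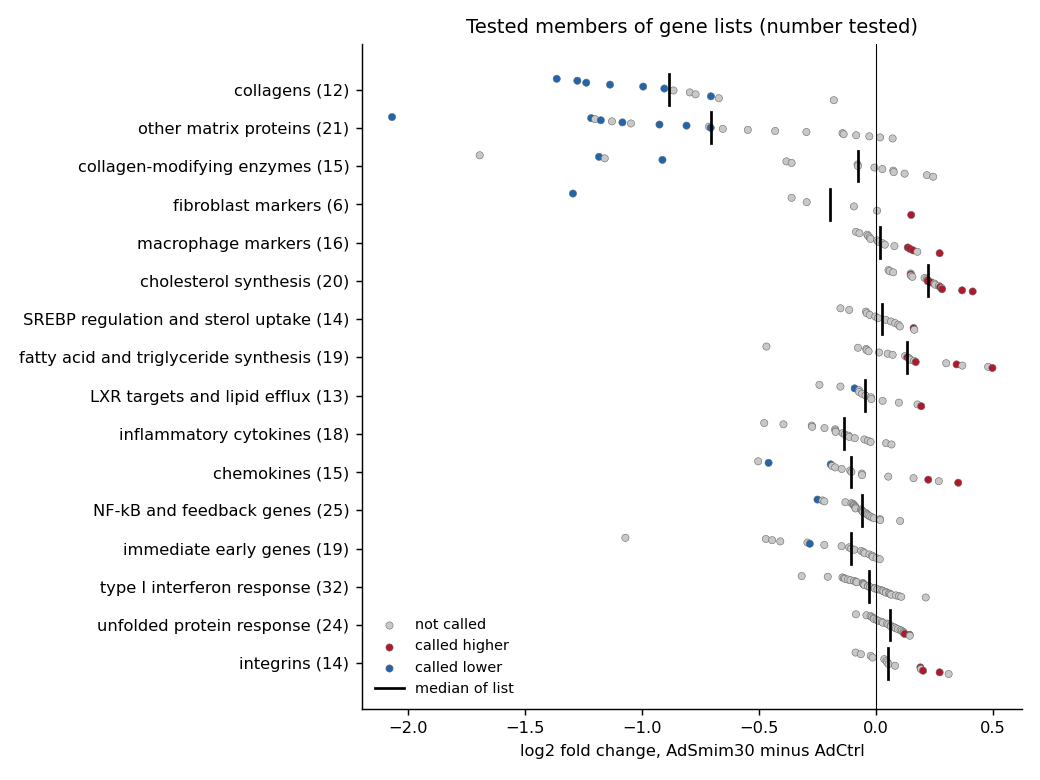
Log2 fold change (AdSmim30 minus AdCtrl) of each tested member of 16 gene lists, with 1 point per gene, red for called higher, blue for called lower, grey for not called, and a black bar at each list's median. Collagens and other matrix proteins spread to the left of 0, cholesterol synthesis lies wholly to the right, and the cytokines lie mostly left of 0 with 0 calls.

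Smaller counts came from the remaining lists. Of 24 tested genes of the unfolded protein response, 2 rose: Hspa5, the chaperone BiP of the endoplasmic reticulum, from 445.3 to 484.8 CPM (1.09-fold, adjusted p = 0.0067), and the disulphide isomerase Pdia3, from 253.5 to 280.1 CPM (1.11-fold, adjusted p = 0.00478). Hspa5 lost its call without AdSmim30 replicate 2 (adjusted p = 0.17) or AdSmim30 replicate 3 (adjusted p = 0.0561). With all 18 libraries in 1 fit, Pdia3 (adjusted p = 0.0779) and Hspa5 lost their calls, and Hspa5 was also lost by DESeq2. Itpr3, a calcium release channel of the endoplasmic reticulum, rose 1.25-fold (adjusted p = 0.00253) as 1 of 17 tested calcium transport genes, with adjusted p = 0.134 without AdCtrl replicate 1 and adjusted p = 0.101 without AdSmim30 replicate 3. The ATF4 list had 1 fall of 17, the transcription factor Cebpb (log2 -0.20, adjusted p = 0.0138), which was lost without AdCtrl replicate 1 (adjusted p = 0.157) or AdCtrl replicate 2 (adjusted p = 0.117). The NRF2 list had 1 fall of 20, Gstm1 (log2 -0.10, adjusted p = 0.0477), a call that was held without AdCtrl replicate 3 only among the 6 leave-one-out fits, with adjusted p from 0.088 to 0.247 in the other 5. Glycolysis, lysosome, TGF-beta signalling, alternative activation, MHC class II, proliferation, oxidative phosphorylation and ribosomal protein lists each gave 0 calls. With 1.43% of all tested genes called, 0 or 1 call in a list of this size says little about the list. Over all 19 lists with 0 calls by edgeR, 0 to 4 genes a list had an unadjusted p under 0.05, DESeq2 called 0 and limma-voom called 2 genes, both in the alternative activation list (Mrc1 higher, Tgm2 lower).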

How the data were processed

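RNA-seq libraries were strand-specific, per the labels' protocols. The authors deposited raw counts of read pairs per gene, made with featureCounts 2.0.3 over GENCODE M25 exons (GRCm38), reversely stranded, per the file headers. The library number inside each header differs from the number in the file's name. Samples were assigned by the listing of the files, not by the header number. The submitters' processing notes also name fastp, FastQC, HISAT2 and DESeq2. Each file lists 55401 genes, with 0 rows that name no gene; 55141 IDs had a symbol in the reference annotation.

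From the counts of the 6 libraries, genes were kept by edgeR's filterByExpr (12701 genes), scaled by TMM and tested with edgeR 4.0.16 (glmQLFit, robust, and glmQLFTest; R 4.3.3) with Benjamini-Hochberg adjustment over all tested genes; called means adjusted p under 0.05. Every adjusted p in the text, also for fits without a library, is from this test unless another tool is named. Tested on simulated data of these libraries (12544 genes), it recovered 38% of 1.2-fold, 66% of 1.5-fold, 92% of 2-fold and 100% of 3-fold changes, and 5.13% of its calls were false. This was 1 draw with 50 changed genes per fold, all with an average log2 CPM above 1. Genes of the same level shared the same dispersion. The 30 called falls of at least 2-fold had a median average log2 CPM of 1.03, and recovery below 1 was not simulated. CPM per group come with n = 3. The 15 alternatives were scaling by RLE or by library totals alone, testing without a filter or with 1 CPM needed in 3 libraries, all 18 libraries in 1 fit, a replicate block, no ribosomal RNA genes, each library left out, DESeq2 1.42.0 and limma-voom 3.58.1. With 3 against 3, an exact permutation test cannot go below 0.1, so none was used.

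Members and gene lists (42) were chosen with earlier results of these data known. Genes were named by rule: Smim30, Tnf, Il1b, Il6, Cxcl1, Cxcl2, Ccl2, Ptgs2, Nos2, Srebf1, Srebf2 and Insig1; the 15 largest rises and 15 largest falls among called genes whose groups were fully apart and whose average log2 CPM reached 2, passing over clone names and pseudogenes; up to 6 called members of each list with the smallest p; tested members of the matrix, fibroblast, cholesterol, SREBP and fatty acid lists; the 5 most expressed members of a cell type list; and the 10 smallest p-values. Others are said to be chosen after their values were seen. Some genes that the rule names are counted in the totals but not reported here. Promoters are from RefSeq (GRCm38.p6) and the Smim30 coding sequence from GENCODE M21 (GRCm38).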

Additional observations from a re-analysis of the deposited data

How the results depend on the processing

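With 3 libraries a group and 10172818 to 13456857 read pairs each, small changes were recovered in part only in the simulated data. Recovery of changes in genes of few counts was not simulated. The 181 calls became 87 with all 18 libraries in 1 fit (77 of them shared with the 181), 68 by DESeq2, and 66 to 453 when single libraries were left out. Calls lost with all 18 libraries or by DESeq2 are not given for every gene named. The 30 called genes with a change of at least 2-fold, all falls in the main fit, became 15 by DESeq2. With single libraries left out there were 16 to 58, counted in either direction. The number was 16 without AdCtrl replicate 1, 18 without AdSmim30 replicate 1 or AdSmim30 replicate 3 and 58 without AdCtrl replicate 3. Smim30 kept a log2 fold change of 0.28 but not its call with all 18 libraries (adjusted p = 0.0532) and by DESeq2 (0.275, adjusted p = 0.0684), and ranged from 0.24 (adjusted p = 0.113, without AdSmim30 replicate 3; 0.25, adjusted p = 0.059, without AdCtrl replicate 2) to 0.31 with single libraries left out. Deviations of same-numbered libraries correlated at 0.005 to 0.020, within the range of -0.032 to 0.024 of differently numbered ones. With 3 libraries a group, these values cannot exclude a pairing by number. A fit with the number as a replicate block called 253 genes (117 higher, 136 lower). Medians of 18 of the 42 lists changed sign in at least 1 alternative, 36 times in all. In 13 of them the main median was smaller than the SD of the library medians. In the other 5 lists the changed values were collagen-modifying enzymes at 0.013 with the 1 CPM filter, macrophage markers at -0.0026 (up to 0.046 without AdSmim30 replicate 3), the alternative activation list at 0.0067 (down to -0.048 without AdCtrl replicate 3) and the nitric oxide, itaconate and prostaglandin list at 0.00094 (down to -0.084 without AdSmim30 replicate 2) without AdCtrl replicate 1, the mast cell and granulocyte markers at 0.037 without AdCtrl replicate 2 and 0.016 without AdSmim30 replicate 3 (down to -0.18 without AdSmim30 replicate 2), and the alternative activation list at 0.0052 without AdSmim30 replicate 2. The cause was not tested, except that fits without a library have fewer samples. Collagen and cholesterol synthesis medians kept their direction under all 15 alternatives. Over the other single genes and lists, 690 gene values lost and 20 gained a call. Among list medians, 42 moved by at least the SD of the library medians. Another 7 changed sign where the main median was above that SD. The remaining 3793 values had no such change. They can still include sign changes of genes called in neither fit and of list medians below the SD.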

Other observations

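The largest rises in genes that no list held were of several kinds. The nestin gene Nes stood at 13.3, 16.5 and 18.8 CPM with AdCtrl and at 26.4, 21.4 and 23.1 with AdSmim30. Efr3b, which helps hold a lipid kinase at the plasma membrane, went from 26.7 to 35.7 CPM (1.34-fold, adjusted p = 0.00031), and Zranb3, a DNA remodelling enzyme of stalled replication forks, from 28.9 to 38.7 CPM (1.34-fold, adjusted p = 0.00014). Both were called in all 6 leave-one-out fits. The receptors Cd72 (1.32-fold, adjusted p = 0.00279), Pilra (1.34-fold, adjusted p = 0.0423) and Slamf9 (1.30-fold, adjusted p = 0.0312) rose as well; they were called in 5, 2 and 1 of the 6 leave-one-out fits. Ifi30, the thiol reductase of the lysosome, stood at 241.7, 245.7 and 250.5 against 291.9, 282.4 and 278.7 CPM (1.16-fold), and was named after its values were seen.

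Among falls in genes outside the lists, Cyp1b1, a cytochrome P450, went from 10.5 to 5.50 CPM, the ubiquitin ligase Nedd4 from 12.1 to 6.37 CPM and Enpp2, which makes lysophosphatidic acid, from 5.62 to 2.81 CPM. Enpp2 lost its call without AdCtrl replicate 1 (adjusted p = 0.117). In IC-21 cells with control siRNA, Cyp1b1 had no count and Nedd4 a mean of 0.0556 CPM. Of the 4 tested members of the dendritic cell list, 1 fell: Fscn1, an actin-bundling protein, went from 5.24 to 2.96 CPM (adjusted p = 0.0269) and was called in 1 of 6 leave-one-out fits. The following were chosen after their values were seen. Fndc1 and Ccdc80, secreted proteins, fell from 4.20 to 1.23 CPM and from 4.99 to 2.21 CPM under all 15 alternatives. The complement gene C3 stood at 96.5, 88.5 and 95.2 CPM with AdCtrl and at 72.7, 72.0 and 77.6 with AdSmim30 (log2 -0.33, adjusted p = 4.5e-06).

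Small falls in abundant genes that no list held are illustrated by genes named after their values were seen, with no test of a shared function. Leng8 went from 144.0 to 125.3 CPM (adjusted p = 0.0015), the cyclin Ccnl1 from 175.1 to 153.0 CPM (adjusted p = 0.0018), the helicase Ddx17 from 273.7 to 246.7 CPM (adjusted p = 0.00356) and the export factor Nxf1 from 87.4 to 75.0 CPM (adjusted p = 0.00878). They were called in 5, 4, 5 and 3 of the 6 leave-one-out fits. A list for MHC class I and its peptide loading was also made after values were seen. Of its 19 tested genes, 4 were lower and 0 higher, with H2-D1 from 4980 to 4723 CPM (adjusted p = 0.014) and H2-Q7 by log2 -0.25 (adjusted p = 0.00685). H2-D1, H2-Q4, H2-Q5 and H2-Q7 are closely similar copies, so how reads were divided between them is uncertain. H2-D1 and H2-Q5 were called in 2 of the 6 leave-one-out fits, H2-Q4 in 3 and H2-Q7 in 4, and all 4 calls were lost by DESeq2 and with all 18 libraries in 1 fit. B2m, their common partner, did not pass (log2 -0.04, adjusted p = 0.514).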
